A study of Mus musculus with 2 samples.

Results

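Internal alternative promoters are transcription starts that lie inside a gene, downstream of its first promoter, and from which a shorter or differently spliced transcript can begin. In the accessible chromatin of mouse CFU-E, they were taken as the regions whose midpoint lay within 1 kb of a protein-coding transcript start that was over 5 kb downstream of its gene's 5'-most protein-coding start. Regions within 1 kb of any other gene's start were left out. By this rule, 728 of 24394 accessible regions (2.98%) were internal promoters, in 598 genes. They were split by the gene's 5'-most annotated start, called its first promoter here without evidence of its use. For 368 regions (303 genes) this start had no region within 1 kb, and for 360 regions (295 genes) it had one. The rule used positions and the presence of a region, not the height of any signal.

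The assay was ATAC-seq, which marks DNA not wrapped in nucleosomes by letting a transposase insert adapters there. CFU-E are committed progenitors of the red cell lineage that depend on erythropoietin. The labels give primary cells of adult C57BL/6J males aged 5 to 6 weeks, and 2 libraries of 50000 cells each, numbered as biological replicates 1 and 2, from separate biosamples with 1 donor identifier. No genetic change or treatment is named, and the libraries form 1 group, so there is no condition to compare.

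The regions come from the list that the authors made from both libraries and thresholded on the irreproducible discovery rate (IDR), a measure of how well peaks repeat between peak sets. Overlapping or touching records were merged. The fold of a region is that of its strongest record over the peak caller's local background. It is the authors' own value, and each list has its own scale. Between the libraries, the −log10 p of records inside internal promoters differed by a median of 0.28 (absolute log2 ratio, 1535 records), against 0.34 (1539 records) between the paired sets of the authors' pseudoreplicate ranking, which the files do not describe further. The first ranking was taken as that of the true replicates because 54.6% and 51.1% of its records were identical to the libraries' own. The comparison of these rankings cannot decide whether the libraries are independent, because the depth behind each set is unknown. With this undecided and 1 donor identifier, the libraries were counted as 1 sample. Values carry no SD, and intervals cover counting error over regions or genes only. Read depth is unknown from peak lists. All 10 erythroid marker genes had a region at a start, as did 2 of 5 megakaryocyte markers (Gp1ba and Itga2b). None of 5 granulocyte and monocyte, 3 annotated T cell or 4 B cell markers had one, nor did the 4 stem cell markers, Flt3, Mecom, Hoxa9 and Kit. Kit encodes a receptor that CFU-E also use, yet no region was listed at its start. The reason was not tested, and absence from a list is not absence of accessibility.

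Promoters assemble RNA polymerase at a transcription start, and many genes have several. CpG-rich promoters, common at widely used genes, are open in many cell types, whereas CpG-poor promoters are more often tied to a cell type. In red cell precursors, GATA1 binds GATA sequences, often together with a TAL1 complex that prefers a nearby CTG, and KLF1 binds CACCC boxes. Several red cell genes are known to start erythroid transcripts from an internal first exon.

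The sequence of a few internal promoters shows how they differ. Each run covers 100 bp to each side of the strongest summit, on mm10 and on the gene's strand, as read from the RefSeq assembly of that build. Capitals mark consensus matches on either strand: GATA (NGATAN, with A or T at its start and A or G at its end), the GATA pair (CTG and a GATA match separated by 7, 8 or 9 bases, printed with the bases between), KLF (CCNCNCCC, with A or C at the first N and A or G at the other) and NFY (CCAATNN, with C or G and then A or G). A GATA pair always holds a GATA match. Positions of a match are those of its first base relative to the internal start, negative upstream. A match is a description of letters and not a measurement of binding.

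The first 6 windows belong to genes of red cells with CpG-poor internal starts and at least 1 GATA match. They lie at Add2 (chr6:86077887-86078087, plus strand), Xpo7 (chr14:70707997-70708197, minus strand), Nfe2 (chr15:103251672-103251872, minus strand), Tns1 (chr1:74001515-74001715, minus strand), Uros (chr7:133702496-133702696, minus strand) and Tmcc2 (chr1:132367788-132367988, minus strand).
Add2 window: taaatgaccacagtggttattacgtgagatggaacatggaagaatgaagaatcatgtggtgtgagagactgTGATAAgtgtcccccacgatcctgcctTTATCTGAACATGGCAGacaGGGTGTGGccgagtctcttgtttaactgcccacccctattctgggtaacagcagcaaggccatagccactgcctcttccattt
Xpo7 window: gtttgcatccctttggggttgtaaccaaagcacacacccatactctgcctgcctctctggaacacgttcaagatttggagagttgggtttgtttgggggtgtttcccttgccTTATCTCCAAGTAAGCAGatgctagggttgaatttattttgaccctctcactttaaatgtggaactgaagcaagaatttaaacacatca
Nfe2 window: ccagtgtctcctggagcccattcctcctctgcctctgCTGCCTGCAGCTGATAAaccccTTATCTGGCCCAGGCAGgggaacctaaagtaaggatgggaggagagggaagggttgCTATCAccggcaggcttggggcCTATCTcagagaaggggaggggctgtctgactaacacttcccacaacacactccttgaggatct
Tns1 window: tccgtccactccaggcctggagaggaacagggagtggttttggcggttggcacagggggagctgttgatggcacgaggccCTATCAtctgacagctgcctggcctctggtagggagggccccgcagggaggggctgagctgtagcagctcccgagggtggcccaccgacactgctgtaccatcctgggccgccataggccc
Uros window: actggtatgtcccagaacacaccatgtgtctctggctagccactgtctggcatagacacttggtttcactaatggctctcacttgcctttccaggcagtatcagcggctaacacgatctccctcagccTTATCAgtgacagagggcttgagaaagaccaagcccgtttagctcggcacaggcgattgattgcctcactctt
Tmcc2 window: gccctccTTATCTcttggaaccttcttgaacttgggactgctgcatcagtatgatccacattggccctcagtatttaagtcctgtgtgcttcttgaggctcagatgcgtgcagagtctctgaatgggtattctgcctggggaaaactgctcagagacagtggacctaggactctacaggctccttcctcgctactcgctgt
Each held between 1 CpG (Xpo7, Nfe2) and 7 CpG (Tns1). Add2 and Xpo7 each had 1 GATA pair, at -72 and -50. Nfe2 had 4 GATA matches and 2 pairs, at -148 and -126. Tns1, Uros and Tmcc2 had 1 GATA match each, at -68, -30 and -94, and no pair.

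Gata1, which encodes the master regulator of red cell development, had a pair of internal regions beside each other at 1 internal start, which lies in an intron. Their windows (chrX:7967888-7968088 and chrX:7968345-7968545, minus strand) divided the matches between them.
Gata1 downstream window: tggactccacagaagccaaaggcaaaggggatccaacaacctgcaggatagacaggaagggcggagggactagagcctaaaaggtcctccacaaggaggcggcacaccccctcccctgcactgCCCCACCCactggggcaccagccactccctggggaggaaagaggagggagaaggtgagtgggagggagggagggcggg
Gata1 upstream window: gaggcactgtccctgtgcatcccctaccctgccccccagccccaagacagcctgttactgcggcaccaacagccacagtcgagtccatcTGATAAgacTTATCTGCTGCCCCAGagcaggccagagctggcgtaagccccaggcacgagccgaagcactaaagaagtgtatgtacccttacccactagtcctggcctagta
The downstream window had a KLF match at -55 and no GATA match. The upstream window had 2 GATA matches and a GATA pair at -537, and no KLF match.

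The last 3 windows show CpG-rich internal starts: the internal promoter of Runx1 (chr16:92697302-92697502, minus strand), and the regions of highest fold in each class, at Dcakd (chr11:103017034-103017234, minus strand) and Tmed9 (chr13:55593022-55593222, plus strand).
Runx1 window: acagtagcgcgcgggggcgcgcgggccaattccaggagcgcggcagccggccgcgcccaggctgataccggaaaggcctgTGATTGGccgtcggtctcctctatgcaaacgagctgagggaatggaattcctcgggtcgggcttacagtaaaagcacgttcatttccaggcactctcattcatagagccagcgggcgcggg
Dcakd window: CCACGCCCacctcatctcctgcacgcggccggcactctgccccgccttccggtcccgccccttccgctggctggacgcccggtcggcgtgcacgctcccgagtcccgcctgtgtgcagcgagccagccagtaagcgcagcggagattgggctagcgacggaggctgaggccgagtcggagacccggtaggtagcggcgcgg
Tmed9 window: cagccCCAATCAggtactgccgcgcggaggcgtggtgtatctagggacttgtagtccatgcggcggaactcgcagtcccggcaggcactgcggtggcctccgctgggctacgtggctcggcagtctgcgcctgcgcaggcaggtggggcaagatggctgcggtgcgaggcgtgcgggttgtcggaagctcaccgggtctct
They held 21, 26 and 20 CpG in this order and no GATA match. Runx1 and Tmed9 had an NFY match, at -94 and -142, and Dcakd had a KLF match at -66.

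Internal promoters were intermediate in strength. Their median fold was 7.90 (exact 95% interval of the median 7.55 to 8.30), against 10.07 (9.93 to 10.2) at the 6510 regions of 5'-most starts, 6.36 (6.29 to 6.43) at 5794 distal intronic regions and 7.57 over all regions. The lowest internal promoter had a fold of 2.25 and the highest 20.1. The median −log10 p was 69.9 at internal promoters, 109 at 5'-most starts and 35.4 at distal intronic regions. Internal promoters also lay between these classes in width, with a median of 652 bp, against 848 bp at 5'-most starts and 438.5 bp in introns. The median fold was 7.92 (7.24 to 8.55) where the first promoter had no region and 7.90 (7.10 to 8.38) where it had one, intervals that overlap almost wholly.

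**Figure D1:**
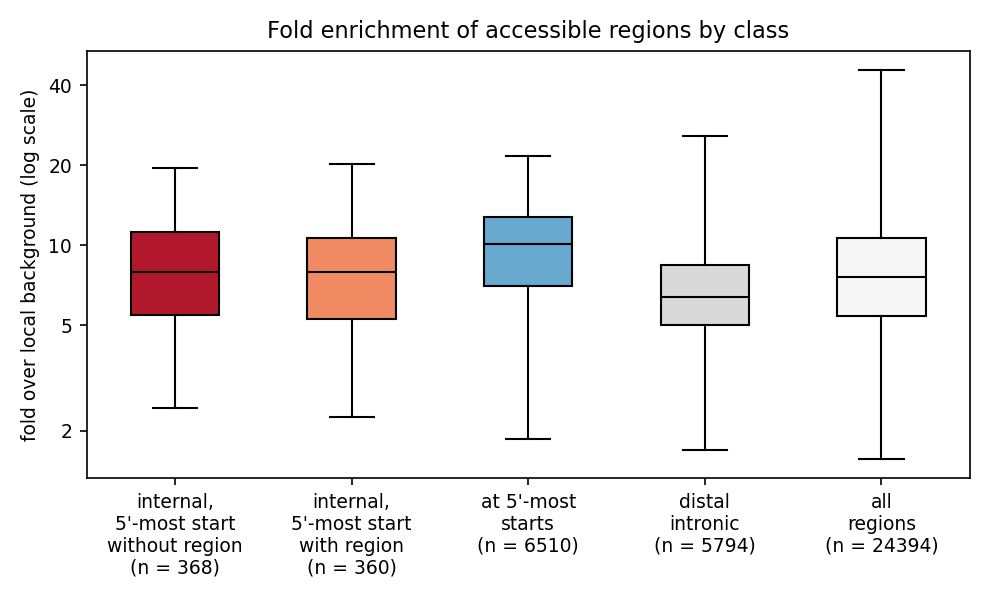
Fold over local background (log axis) for both classes of internal promoters, regions at 5'-most starts, distal intronic regions and all regions of the series list. Boxes run from the lower to the upper quartile with the median as a line, and whiskers reach the lowest and highest region. Both internal classes have medians near 7.9, below the 10.07 of 5'-most starts and above the 6.36 of distal intronic regions.

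Where both promoters were accessible, each gene's strongest internal region was set beside its strongest region at the 5'-most start. The median fold was 8.63 (8.29 to 9.24) inside the gene and 9.60 (8.79 to 10.1) at the 5'-most start over these 295 genes. The internal region had the higher fold in 137 genes (46.4%, exact 95% interval 40.6 to 52.3) and the higher −log10 p in 113 (38.3%, 32.7 to 44.1). The interval of the first share includes 50% and that of the second lies below it. The share of internal promoters without a region at the first promoter depended on how strict the list was. It was 50.5% in the series list, 44.5% in the less strict overlap list and 64.1% among the upper 50% of regions by fold. In 45 of 368 cases without a region (12.2%, 9.06 to 16.02) the overlap list had one at the first promoter.

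At the level of genes, 41.9% of 21853 protein-coding genes had a region at their 5'-most start. An internal start that could make a member was annotated in 4785 genes, and 591 of these had an internal region (12.4%). Another 7 member genes qualified through a region although their internal start lay within 1 kb of another gene's start. The share was 11.3% (10.1 to 12.5) of 2645 genes whose first promoter had no region and 13.7% (12.3 to 15.2) of 2140 genes whose first promoter had one. These intervals overlap, and the difference depended on the setting. Without and with a region at the first promoter, the shares were 13.4% and 22.4% when transcripts of unknown 5' end were left out, 11.2% and 19.9% with the GENCODE basic set, and 7.74% and 7.67%, in the other order, among the upper 50% of regions by fold. The number of internal promoters depended on the lists and annotation used: it was 1102 in the less strict overlap list, 390 among the upper 50% of regions by fold, 380 with transcripts of support level 1 or 2 and 437 with the GENCODE basic set. Most member genes had 1 internal region (489), 89 had 2, 19 had 3 and 1 had 4. The regions had 684 distinct nearest starts, and 87 regions shared their nearest start with another.

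CpG-rich internal starts were accessible more often than CpG-poor ones. A start was called CpG-rich when the 500 bp around it had at least 50% G and C and an observed over expected CpG ratio of at least 0.6. Of 1172 CpG-rich internal starts, 624 had a region within 1 kb (53.2%, 50.3 to 56.1), against 580 of 8130 CpG-poor ones (7.13%, 6.58 to 7.72). Starts of 1 gene can lie close together and share a region.

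**Figure D2:**
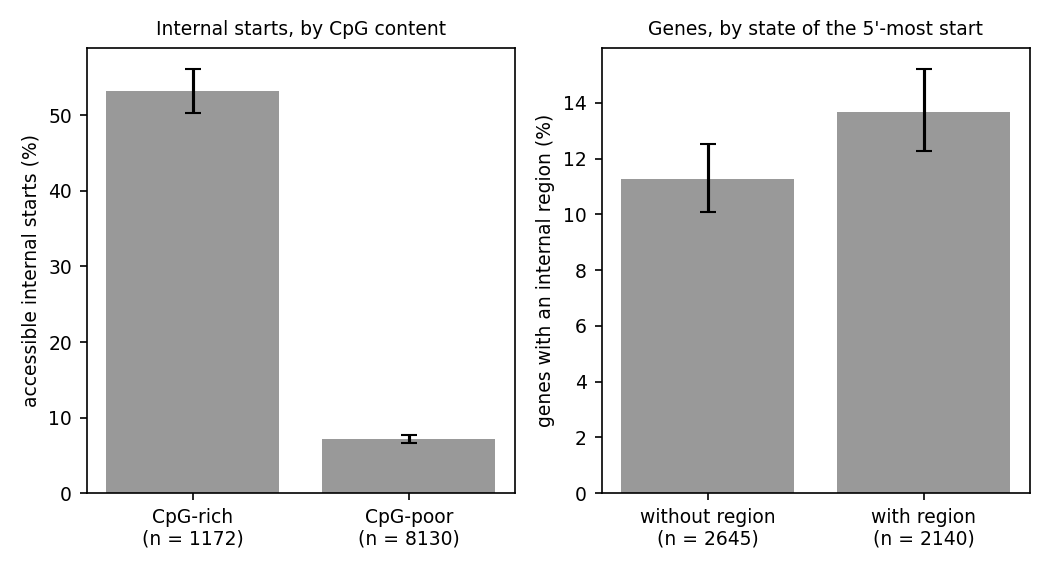
Left, the share of annotated internal starts with a region within 1 kb, by CpG content. Right, the share of genes with an internal region, by whether the 5'-most start had a region. Bars are percentages and lines exact 95% intervals over starts or genes. CpG-rich internal starts reach 53.2% and CpG-poor ones 7.13%, while the gene shares are 11.3% and 13.7%.

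Of the internal promoters themselves, 46.2% (336 of 728) had a CpG-rich start, against 82.7% of regions at 5'-most starts. Over all protein-coding genes, open or not, 48.4% of 5'-most starts were CpG-rich. Measured at the summit, 44.1% of internal promoters were CpG-rich, against 36.7% of all regions. The 2 classes of internal promoters differed here: 57.6% (52.4 to 62.7) were CpG-rich where the first promoter had no region and 34.4% (29.5 to 39.6) where it had one. The first promoter ran the other way, with a CpG-rich 5'-most start for 20.4% of regions in the class without a region there and for 75.8% in the class with one. The classes were defined by a region at that start, and regions at 5'-most starts were mostly CpG-rich. The contrast at the first promoter is therefore not independent of the split, and is not a trait of genes with internal promoters. The median CpG ratio at the internal start was 0.706 where the first promoter had no region and 0.428 where it had one.

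**Figure D3:**
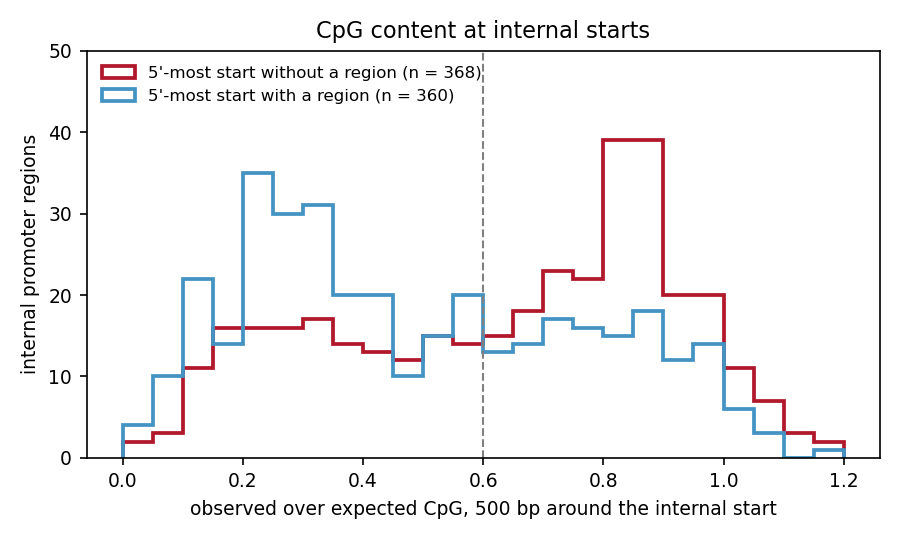
Number of internal promoter regions by the observed over expected CpG ratio of the 500 bp around the internal start, in bins of 0.05, for genes whose 5'-most start had no region (red) and had one (blue). The dashed line marks the ratio of 0.6. The red outline is highest between 0.8 and 0.9 and the blue outline between 0.2 and 0.25.

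CpG-rich internal promoters were the stronger and the more often found in each library. Their median fold was 9.31 (8.55 to 9.86), against 6.93 (6.63 to 7.35) for CpG-poor ones. They were present in both libraries' own lists in 81.8% of cases, against 64.0% of CpG-poor ones. This order is not particular to internal promoters. Regions at CpG-rich and CpG-poor 5'-most starts had median folds of 10.37 and 8.58, and 85.7% and 75.4% were in both lists. In all, 80.5% of internal promoters overlapped a region of replicate 1's list and 76.1% of replicate 2's, against 74.9% and 70.6% of all regions. Both lists held 72.3% (68.8 to 75.5), against 65.3% of all regions, and the conservative list of the series held 92.2%, against 91% of all regions. The 114 internal promoters in neither library's list had a median fold of 4.43, against 9.38 for the 526 in both. Over these 526, the fold in the libraries' own lists, each on its own scale, differed by a median of 0.09 (absolute log2 ratio).

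Most internal starts lay in introns. Of 728, 615 (84.5%) fell in an intron of the upstream transcripts and 111 (15.2%) in an exon, and 2 lay downstream of these transcripts. The median distance from the 5'-most start was 19.9 kb (17.9 to 22.7), with a range of 5.03 to 2100 kb. At the median, 45.1% of the gene lay upstream of the internal start. The share whose first promoter had no region was 53.1% at 5 to 10 kb, 43.8% at 10 to 25 kb, 50% at 25 to 100 kb and 65.8% (53.7 to 76.5) of the 73 regions beyond 100 kb. The strongest summit lay upstream of the start in 68.8% of regions, at a median position of -51.5 bp, and within 100 bp of it in 46.7%. A TATAA sequence 16 to 50 bp upstream was found at 1.92% of these internal starts, against 5.14% of the 5'-most starts of all protein-coding genes, open or not. These sets differ in accessibility, and the share at accessible 5'-most starts is not given here.

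GATA matches were more frequent at CpG-poor than at CpG-rich internal promoters. A match within 100 bp of the summit was present in 26.6% of internal promoters (23.5 to 30.0), against 33% of all regions. Among those with CpG-poor starts the share was 40.3% (35.4 to 45.3), and among those with CpG-rich starts 10.7% (7.62 to 14.5). Regions at CpG-poor 5'-most starts had a match in 21.9% (19.5 to 24.4), and distal intronic regions in 55.0% (53.7 to 56.3). Flanking windows 1 kb away that overlapped no region had a match in 28.3% of cases for CpG-poor internal promoters and 29.8% for CpG-rich ones, so CpG-poor summits lay above their flanks and CpG-rich summits below. GATA letters are mostly A and T, and the classes were split on base composition. The median G and C content was 52.7% at CpG-poor and 67.4% at CpG-rich internal starts. The CpG class was set at the start, whereas matches were read at the summit. A CpG-rich summit was found at 6.12% of CpG-poor internal promoters and 26.0% of regions at CpG-poor 5'-most starts. These CpG-poor groups are thus not alike in composition where matches were read. Flanks and groups were not matched for composition, here or below, so its part in these contrasts was not tested.

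The GATA pair, which is rarer in flanking sequence, separated the classes further. It was found in 8.38% of internal promoters, against 9.44% of all regions. The share was 14.5% (11.2 to 18.4) at CpG-poor internal promoters, with 1.89% in their flanks, and 1.19% at CpG-rich ones, with 2.19% in their flanks. Regions at CpG-poor 5'-most starts had the pair in 5.79% (4.50 to 7.32) and distal intronic regions in 18.1% (17.2 to 19.2). The share at CpG-poor internal promoters thus lay above that of CpG-poor first promoters, while its interval overlapped that of distal intronic regions. The CpG-poor first promoters were more often CpG-rich at the summit, as given above, so the groups are not like for like. Within CpG-poor internal promoters, the pair was found in 18.5% (12.9 to 25.4) where the summit lay within 100 bp of the start and in 11.7% (7.88 to 16.6) where it lay farther, with overlapping intervals.

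KLF matches were more frequent at CpG-rich than at CpG-poor internal promoters. They were present in 37.5% of internal promoters, against 29.4% of all regions, with 49.7% (44.2 to 55.2) at CpG-rich and 27.0% (22.7 to 31.7) at CpG-poor starts. The flanks of these classes had 10.2% and 7.56%. KLF letters are mostly C and G, so the split by base composition bears on these shares too. Regions at 5'-most starts had a KLF match in 44.0% and distal intronic regions in 19.5%. By CpG class, the share at 5'-most starts was 45.6% (44.3 to 46.9) at CpG-rich and 36.2% (33.4 to 39.1) at CpG-poor ones. CpG-poor internal promoters thus lay below CpG-poor first promoters, which were more often CpG-rich at the summit. NFY, a factor of CCAAT boxes in promoters, matched 13.5% (11.1 to 16.2) of internal promoters, against 14.1% of all regions and 22.5% of regions at 5'-most starts. The 98 internal promoters with an NFY match had a median fold of 11.3 (9.39 to 12.6), against 7.58 (7.07 to 7.96) for the 630 without. Over all regions the corresponding medians were 10.08 and 7.26.

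CTCF matches were less frequent at internal promoters. They were present in 4.12% (2.80 to 5.83) of internal promoters, against 6.96% of all regions, 9.73% (8.98 to 10.5) of distal intronic regions and 1.38% (1.11 to 1.70) of regions at 5'-most starts. The remaining consensus sequences had intervals that included the share of all regions. RUNX (TGNGGTN, with C or T at each N) matched 9.48%, against 9.54%. NRF1 matched 1.10%, against 1.12%, NFE2 matched 1.10%, against 1.54%, and ETS (ACCGGAAGT) matched 0.687%, against 1.03%.

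**Figure D4:**
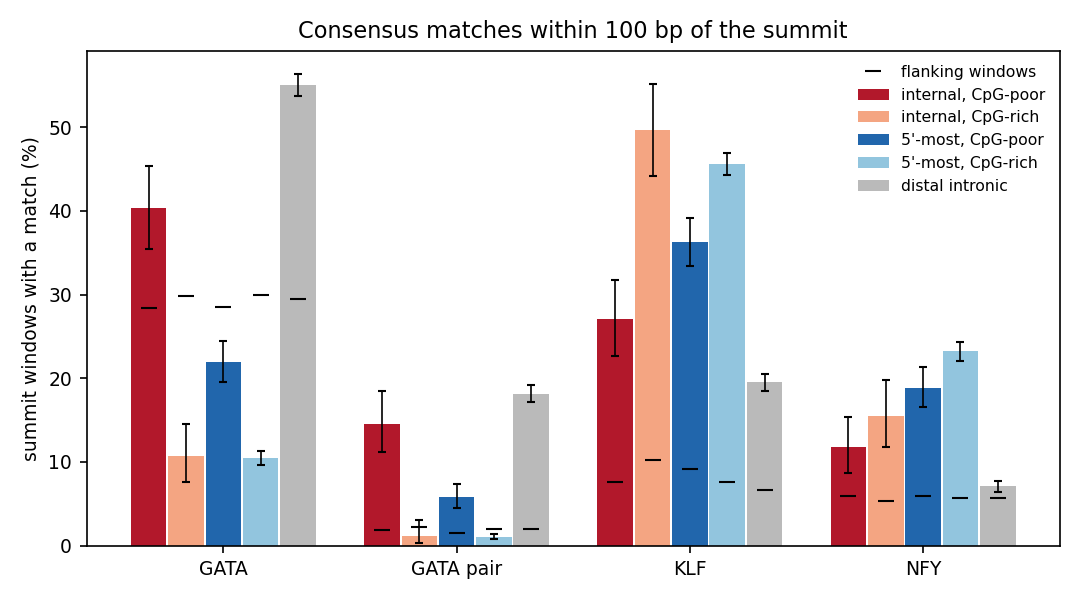
Share of summit windows (100 bp to each side) with a GATA, GATA pair, KLF or NFY match on either strand, for internal promoters, regions at 5'-most starts and distal intronic regions. Bars are percentages with exact 95% intervals over regions, and black ticks give the share in windows 1 kb away that overlap no region. CpG-poor internal promoters reach 40.3% for GATA and 14.5% for the pair, and CpG-rich ones 49.7% for KLF.

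Red cell genes were examined by lists that were chosen with earlier results of these data known, so their counts describe the listed genes only. Of 30 genes known for alternative promoters in blood, 19 had a usable internal start and 13 of these had an internal region, against 12.4% of all such genes. The counts were 10 of 20 for erythroid transcription regulators, 10 of 13 for membrane skeleton and surface genes, 3 of 7 for haem, iron and globin genes and 2 of 10 for cell cycle and signalling genes. Annotated internal starts per gene were not matched in this comparison, and more starts give a gene more chances of a region. The lists share genes. Together they gave 40 internal regions in 27 genes. Both libraries' lists held 36 of the 40 (90%), against 72.3% of all internal promoters. The first promoter had no region in 15 of the 27 genes (55.6%), close to the 50.7% of all 598 genes with an internal promoter.

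Among the regulators, Gata1 had its stronger internal region at chrX:7967806-7968273, with a fold of 6.43 in the series list, 5.87 in replicate 1's own list and 6.50 in replicate 2's. The second region, chrX:7968332-7968607, had a fold of 4.01, with 3.74 in replicate 1 and 4.22 in replicate 2. Its 5'-most start, 10.2 kb upstream, had no region. Gata1 is known to have an upstream promoter used in testis and a downstream one used in red cells. Of 3 annotated protein-coding starts, 2 lie over 5 kb downstream of the 5'-most one. Transcripts from the accessible internal start are annotated with the coding start of those from the 5'-most start.

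Sox6, which silences embryonic globin, had internal regions with folds of 8.26 (7.64 in replicate 1, 8.06 in replicate 2) and 6.22 (5.53 in replicate 1, 6.58 in replicate 2), 193 kb downstream of a 5'-most start without a region. Nr3c1, the glucocorticoid receptor that sustains stress erythropoiesis, had 3 regions 28.1 to 30.1 kb downstream, with folds of 9.39, 6.61 and 4.97 in the series list. In replicate 1 these were 8.87, 6.88 and 4.74, and in replicate 2 they were 9.15, 5.80 and 5.06. Cbfa2t3, a corepressor of the TAL1 complex, had an internal region of fold 5.00 (4.89 in replicate 1, 5.10 in replicate 2). None of these 3 genes had a region at the 5'-most start.

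The other 6 regulators were accessible at both ends. Runx1, needed for definitive blood formation, is known for a distal and a proximal promoter. Its internal region at the proximal start (chr16:92697206-92697603) had a fold of 8.55, with 8.0 in replicate 1 and 8.53 in replicate 2, against 5.48 at the 5'-most start 129 kb upstream. In the series list the proximal start was the stronger. A neighbouring region of fold 2.86 was in neither library's list. Lmo2, a scaffold of the TAL1 complex, had an internal fold of 6.86 (6.65 in replicate 1, 6.44 in replicate 2), against 7.16 at its 5'-most start. Its partner Ldb1 had an internal fold of 8.57 (8.83 in replicate 1, 7.80 in replicate 2), against 5.27 at its 5'-most start. By fold in the series list, Lmo2 was thus nearly even between its starts, while Runx1 and Ldb1 were stronger inside the gene. Values at the 5'-most start are of the series list alone. The order by −log10 p, which can differ, is not given for named genes.

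Nfe2, which encodes a factor acting at the globin control regions, had internal folds of 5.79 (5.95 in replicate 1, 5.49 in replicate 2) and 4.27 (4.10 in replicate 1, 4.58 in replicate 2), against 7.80 at its 5'-most start. Klf3, a repressor that binds CACCC boxes, had 6.64 (6.41 in replicate 1, 6.57 in replicate 2) and 5.24 (5.17 in replicate 1, 5.10 in replicate 2), against 7.84. Tcf3, the E-protein partner of TAL1, had 7.89 (8.23 in replicate 1, 7.79 in replicate 2), against 9.17. In these 3 genes the first promoter had the higher fold. Over the 12 listed genes that were accessible at both starts, the strongest internal region exceeded the 5'-most start in 6.

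Of the 10 membrane and surface genes with an internal region, 7 had none at the first promoter, against 303 of all 598 genes with an internal promoter (50.7%). With so few genes, the count describes the listed genes only. Tns1, which encodes tensin, a link between actin and adhesion sites, had an internal fold of 9.59 (9.26 in replicate 1, 8.76 in replicate 2) 123 kb downstream of its 5'-most start (region chr1:74001080-74001854). Every transcript annotated at this Tns1 start has an unknown 5' end, and no curated RefSeq start lies there, so the true start may lie elsewhere. Add2, encoding the adducin subunit that caps actin at spectrin junctions, had 7.39 (7.35 in replicate 1, 6.92 in replicate 2) at 49.4 kb (chr6:86077470-86078368). Ank1, which ties band 3 to spectrin, had 7.08 (6.96 in replicate 1, 6.86 in replicate 2) at 60.4 kb (chr8:23034914-23035449). None of the 3 had a region at the 5'-most start.

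The tropomyosins, which coat short actin filaments, also belonged to this class. Tpm3 had an internal fold of 11.1 (10.7 in replicate 1, 10.4 in replicate 2) and Tpm1 of 9.88 (9.40 in replicate 1, 9.73 in replicate 2). Both starts were CpG-rich. Add3, another adducin, had 7.04 (6.12 in replicate 1, 7.01 in replicate 2). Dmtn, which bundles actin in the membrane skeleton, had 3 internal regions with folds of 5.37, 4.98 and 4.72 in the series list. These were 5.60, 4.75 and 4.42 in replicate 1 and 4.74, 5.06 and 4.83 in replicate 2, so their order differed between the libraries.

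In 3 membrane genes both starts were accessible. Epb41, encoding protein 4.1, which strengthens the contact of spectrin and actin, had an internal fold of 9.58 (9.08 in replicate 1, 8.39 in replicate 2), against 5.29 at its 5'-most start. Tmcc2 had 10.04 (9.33 in replicate 1, 9.96 in replicate 2), against 4.43. Cd47, a surface signal that restrains phagocytosis, had 5.53 (5.29 in replicate 1, 5.23 in replicate 2), against 8.79. By fold in the series list, the internal region was the stronger in Epb41 and Tmcc2 and the weaker in Cd47.

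**Figure D5:**
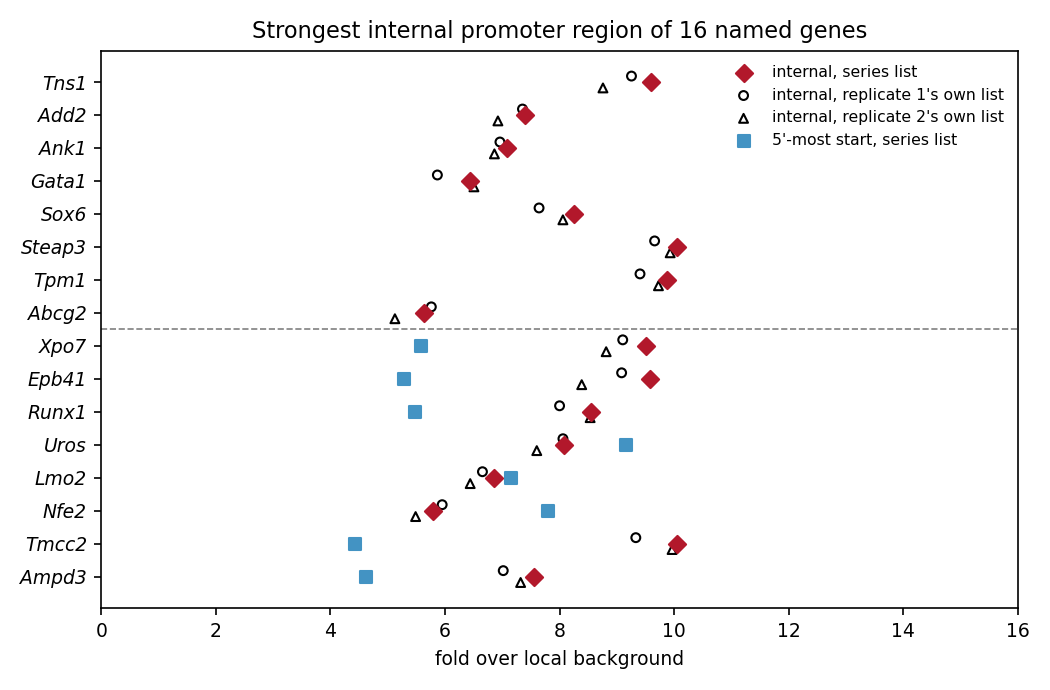
Fold over local background of the strongest internal promoter region of 16 genes from the lists, in the series list (diamonds) and in each library's own list (circles and triangles), with the strongest region at the 5'-most start (squares). Genes above the dashed line had no region at the 5'-most start. The squares lie to the left of the diamonds (lower fold) for Xpo7, Epb41, Runx1, Tmcc2 and Ampd3, and to the right for Uros, Lmo2 and Nfe2.

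Haem and iron genes with internal regions were Uros, Steap3 and Abcg2. Uros encodes an enzyme of haem synthesis whose deficiency causes a porphyria, and is known for separate housekeeping and erythroid promoters. Its internal fold was 8.07 (8.06 in replicate 1, 7.60 in replicate 2), against 9.16 at its 5'-most start 7.53 kb upstream. Steap3, the ferrireductase of the transferrin cycle, had 10.05 (9.66 in replicate 1, 9.93 in replicate 2). Abcg2, which exports porphyrins, had 5.64 (5.76 in replicate 1, 5.12 in replicate 2). Neither Steap3 nor Abcg2 had a region at its 5'-most start.

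Further listed genes included Xpo7, a nuclear exporter needed for chromatin condensation in maturing erythroblasts. Its internal region (chr14:70707810-70708289) had a fold of 9.51 (9.10 in replicate 1, 8.81 in replicate 2), against 5.57 at the 5'-most start 58.6 kb upstream. Ampd3, the AMP deaminase of red cells, had internal folds of 7.55 (7.02 in replicate 1, 7.32 in replicate 2) and 4.59 (4.41 in replicate 1, 4.68 in replicate 2), against 4.62. By the series fold of the strongest internal region, both genes were stronger at the internal start. Ccnd3, a cyclin that sets how often erythroid cells divide, had 3 regions at folds of 6.11, 3.18 and 2.91 and no region at its 5'-most start. The strongest had 5.69 in replicate 1 and 6.20 in replicate 2, the second 3.15 in replicate 1 only, and the weakest was in neither list. Pde4d, a phosphodiesterase of cyclic AMP, had 5.92 (5.78 in replicate 1, 5.75 in replicate 2) and 3.07 (3.47 in replicate 2 only), 1032 kb from its 5'-most start, which had no region. Of the 40 listed regions, 26 (65.0%) had CpG-poor starts, against 392 of all 728. A GATA match was present in 15 of these 26 (57.7%), against 40.3% of all CpG-poor internal promoters and 55.0% of distal intronic regions. It was present in 1 of the 14 with CpG-rich starts, against 10.7%. These are few regions of lists chosen with earlier results known, and the shares carry no interval, so they describe the listed regions only.

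The regions of highest fold were at genes outside these lists. In the class without a region at the 5'-most start, the 12 highest included Tmed9, a cargo receptor of the early secretory pathway, Homez, Sgms1 (a sphingomyelin synthase), Sp100 (of nuclear bodies), Gnl2 (a nucleolar GTPase), Arhgap6, Fkbp5 (a co-chaperone of the glucocorticoid receptor), Pcyt1b (phosphatidylcholine synthesis), Hif1a (hypoxia response), Prpf6 (splicing) and Scp2 (lipid transfer). Tmed9 had a fold of 19.6 (18.9 in replicate 1, 17.7 in replicate 2) and Scp2, the last of the 12, had 15.9 (14.7 in replicate 1, 14.6 in replicate 2). Hif1a had 16.03 (15.1 in replicate 1, 13.2 in replicate 2), 6.53 kb downstream of its 5'-most start. All 12 were in both libraries' lists, against 75.5% of this class. CpG-rich starts numbered 8 (66.7%), against 57.6% of the class, and 2 regions (16.7%) had a GATA match, against 24.7%. Every transcript at the Sp100 start has an unknown 5' end.

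In the class with a region at the 5'-most start, the 12 highest were Dcakd, Osbpl9 (lipid transfer), Zfp638, Dhx30 (an RNA helicase), Plgrkt (a plasminogen receptor), Clta (clathrin light chain), Zfand6, Ccdc77, Rabgap1, C330007P06Rik, Chd8 (a chromatin remodeller) and Zfand4. Dcakd had a fold of 20.1 (18.8 in replicate 1, 18.6 in replicate 2), against 11.8 at its 5'-most start. Chd8 had 16.5 (15.7 in replicate 1, 15.4 in replicate 2), against 16.01, and Zfand4 had 16.3 (15.8 in replicate 1, 14.9 in replicate 2), against 11.6. The internal region was the higher in each of the 12, which were chosen for a high internal fold. CpG-rich starts numbered 7 (58.3%), against 34.4% of this class. Zfand4 alone (8.33%) had a GATA match, as part of a pair, against 28.6% of the class. An NFY match was present in 7 of 12 in each class (58.3%), against 13.5% of all internal promoters.

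Clusters of internal regions occurred in 20 genes, with 61 regions. Tsc22d1, which encodes a regulator of the TSC22 family, had 4 regions with folds of 8.03, 4.96, 3.62 and 2.94, 89.3 to 90.1 kb from a 5'-most start without a region. Its stronger pair had 8.003 and 4.95 in replicate 1 and 7.62 and 4.68 in replicate 2, and the weaker pair was in neither list. The 19 genes with 3 regions were Adgrg1, Ankrd28, Atf7ip, Atxn7l1, Cast, Ccnd3, Dmtn, Fam214b, Nfyc, Nr3c1, Pacsin2, Pik3r1, Rab3il1, Rreb1, Slc3a2, Tbc1d14, Tbcel, Tfdp2 and Zcchc7. Among them, Nfyc, a subunit of NFY, had folds of 15.6, 10.9 and 10.9 with replicate values of 10.3 to 14.7 and no region at its 5'-most start. Cast, the calpain inhibitor, combined a region of fold 14.2 (13.6 in replicate 1, 13.4 in replicate 2) with 2 regions of folds 4.61 and 3.603 that were in neither list. Of the 61 regions, 43 (70.5%) were in both libraries' lists, near the 72.3% of all internal promoters. CpG-poor starts also numbered 43, against 392 of all 728.

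The annotated protein often changed with the start. Transcripts from the internal start shared the coding start of the 5'-most transcripts for 330 regions (45.3%), had another for 324 (44.5%), and could not be compared for 74 (10.2%) because of incomplete annotation. For 220 regions with another coding start and complete lengths, the internal transcripts' longest product was the shorter in 150 (68.2%, 61.6 to 74.3). The median length was 488.5 codons from the internal start and 594 from the 5'-most start. Among named genes, Tmcc2 had 471 codons from the internal start and 706 from the 5'-most, Tpm1 had 251 and 326, Runx1 had 387 and 465, Ank1 had 1887 and 1907, and Hif1a had 836 and 810. Add2 (725 codons) and Sgms1 (419 codons) had the same coding start and length from both starts. The lists hold accessibility only, so use of these starts was not measured.

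Annotation support differed between the classes. A curated RefSeq start lay within 1 kb of the internal start for 500 of 728 regions (68.7%), with 76.6% where the first promoter had no region and 60.6% where it had one. At the 5'-most start the order was reversed, with a curated RefSeq start for 54.1% without a region there and 74.7% with one. A 5'-most transcript had support level 1 or 2 for 55.4% and 75.8%. The 5'-most starts without a region were thus the less well supported in annotation. For 179 regions (24.6%) RefSeq's own 5'-most curated start lay within 1 kb of the internal one, so no curated transcript began farther upstream. This share was 32.6% where the first promoter had no region, 16.4% where it had one, 40.2% at CpG-rich starts and 11.2% at CpG-poor starts. Every transcript at the internal start had an unknown 5' end for 71 regions (9.75%), 64 of them CpG-poor. Among CpG-poor internal promoters, the GATA pair was found in 11.0% (7.02 to 16.2) of those with a curated RefSeq start there and in 18.2% (13.04 to 24.4) of those without, with overlapping intervals.

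The distance of 5 kb divides a continuum. The members nearest above it were Pmvk at 5.03 kb (fold 8.19), Abhd4 at 5.04 kb (fold 3.43) and Capg at 5.06 kb (fold 6.66). The regions nearest below it were Pef1 at 4.998 kb (fold 11.2), Asl at 4.947 kb (fold 10.3) and Rnase6 at 4.941 kb (fold 6.85).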

How the data were processed

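ATAC-seq peak lists of 2 CFU-E libraries on mm10 were analysed as 1 group. The authors called peaks on each library and on both together, per the deposited file listing. Which aligner and caller were used, and how Tn5 offsets were handled, is not given in the sources used here. Each peak's fold is a ratio over local background computed by the authors, and the p of a peak was deposited as −log10. The summit offsets deposited in the lists gave summit positions. From these files, records that overlapped or touched were merged, classed against GENCODE M21 protein-coding starts (GRCm38.p6, the build called mm10), and described by counts, medians and exact (Clopper-Pearson or order statistic) 95% intervals. There is no condition to compare, so no test was made. Library values are those of the library's own list at an overlap of at least 1 bp. Sequence and curated starts came from RefSeq on the same assembly. Members were named by rule: the 12 of highest fold per class, every region of a listed gene, the 5 genes with the most regions (with ties, 20), and 3 regions to each side of the 5 kb distance. Some members that the rule names are not reported here. The members and lists were chosen with earlier results of these data known. The median fold by motif, the pairing by gene and the split by RefSeq support were chosen after seeing the data. Python 3.11.15, pandas 2.3.3, numpy 2.4.6, scipy 1.17.1, pysam 0.24.0 and matplotlib 3.10.9 were used, and the counting code was tested on simulated data. Signal tracks and the lists called replicated were not used here. Alternative lists, windows, distances and transcript sets are given below.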

Additional observations from a re-analysis of the deposited data

How the results depend on the processing

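Of 120 alternative values of 9 results under 16 settings, 77 stayed within the main interval, or within 1.5 times the main count, and 43 moved. These are levels with no sign to reverse, but an order between shares turned in the upper 50% by fold, and the share without a region at the first promoter, 50.5% in the main list, fell to 44.5% to 49.7% in 4 settings. The series' less strict overlap list gave 1102 internal promoters, with 44.5% lacking a region at the first promoter, a median fold of 5.46 (8.57 at 5'-most starts) and 38.5% CpG-rich starts. The share of genes with an internal region was then 15.4% without and 19.4% with a region at the first promoter. The upper 50% of regions by fold gave 390 internal promoters in 373 genes, 64.1% without a region at the first promoter, a median fold of 10.6 (11.6 at 5'-most starts), 55.9% CpG-rich starts and gene shares of 7.74% and 7.67%, so the order of these shares turned. With either library left out, 55.8% to 56.3% had no region at the first promoter, the median fold was 8.38 to 8.51, that of 5'-most starts 9.93 to 10.05, CpG-rich starts made up 49.7% to 51.5%, and gene shares were 9.64% to 10.03% without and 10.7% to 11.3% with a region. A window of 500 bp gave 55.8% without a region, median folds of 8.51 and 10.6, 50.5% CpG-rich starts and a gene share of 11.9% with a region. A distance of 2 kb gave a median fold of 7.28. Transcripts of support level 1 or 2 gave 380 internal promoters in 311 genes, a median fold of 7.37 and gene shares of 14.4% and 18.03%. The GENCODE basic set gave 437 in 366 genes and a gene share of 19.9% with a region. Leaving out transcripts of unknown 5' end gave gene shares of 13.4% and 22.4%. A CpG ratio of at least 0.75 left 33.2% CpG-rich starts, and a summit window of 50 bp a GATA share of 19.4%. The cause of these moves was not tested, apart from what each setting itself changes. No paired analysis was possible because the 2 libraries form 1 group. Read depth is unknown, so absence from a list is not absence of accessibility.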

Other observations

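Several genes known for alternative promoters in blood had no internal promoter by the distance and window used. Slc11a2, the iron transporter, had 2 accessible starts at 1 to 5 kb, no region at its 5'-most start and none at the start 21.8 kb downstream. Tal1 and Bcl2l1 had 3 and 5 accessible starts at 1 to 5 kb and no start beyond 5 kb, beside a region at the 5'-most start. Their furthest starts lay 3.08 and 1.42 kb downstream. Starts this close can share a region, so the counts are not numbers of separate accessible promoters. Mitf and Slc6a9 each had 4 starts beyond 5 kb, none of them accessible, beside a region at the 5'-most start. Cdkn2a had a region at neither its 5'-most start nor its start 12.5 kb downstream. Nfia, which favours the red cell fate, had 3 accessible starts beyond 5 kb, but no region there lay over 1 kb from another gene's start.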
